A study of Mus musculus with 16 samples.

Results

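The genes described here are 38 listed genes of glucose uptake, glycolysis, lactate handling, glycogen metabolism and the pyruvate dehydrogenase complex, taken from the 51912 genes of a count table of neonatal mouse heart ventricle. Each listed symbol matched 1 Ensembl gene identifier, and all 38 passed the filter on low counts (10 or more counts summed over every group), which left 20159 genes tested. The list was chosen by function, with earlier results of these data known. It holds 4 genes of uptake and phosphorylation, 18 of glycolysis, 4 of lactate, 10 of glycogen and 2 of pyruvate dehydrogenase.

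The study measured total RNA, depleted of rRNA, from full ventricles of neonatal mice. It gave 16 libraries, 4 to a group, and the groups are named WT SH and WT MI, then KO SH and KO MI. WT mice were C57BL/6J mice from a supplier. KO mice lacked *Lrrc10*, a gene of cardiomyocytes, in the whole body (Lrrc10-/-) and were made in a C57BL/6 background, and littermate controls were not described. Surgery was at postnatal day 1, either myocardial infarction (MI) by ligation of the left anterior descending artery or sham surgery (SH) in which the heart was not exposed, and hearts were taken 7 days later. The ventricle was taken above and below the ligation, so infarcted and remote tissue were mixed, and in such bulk tissue fewer cells of a type and less RNA per cell cannot be told apart.

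Heart muscle takes up glucose through the transporters GLUT1 (*Slc2a1*) and the insulin-responsive GLUT4 (*Slc2a4*), and hexokinases trap it as glucose 6-phosphate, which enters glycolysis or is stored as glycogen. Glycolysis ends in pyruvate, which lactate dehydrogenase turns to lactate or pyruvate dehydrogenase passes to the mitochondrion. The heart relies more on glycolysis before birth and moves towards fatty acid oxidation in the days after it. Many genes of glycolysis are known targets of the hypoxia-inducible factors, whose binding element has the core ACGTG or GCGTG.

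The libraries held between 33783874 and 57470159 counts, so that 3 counts, the floor used here, were between 0.0577 and 0.0858 CPM (counts scaled to the normalised library size). *Lrrc10* had 0 counts in all 8 KO libraries and from 1075 to 1850 in the WT libraries. The study describes its groups as balanced for sex. *Xist* and Y-linked genes marked all 4 WT SH libraries as male, against 2 of 4 in each other group, so that sex and group cannot be fully told apart in contrasts with WT SH. Cardiomyocyte markers were abundant in every library, with a summed level of 27113 to 41793 CPM over 8 genes. Among the KO MI libraries 2 stood apart for the genes of glucose metabolism and in opposite directions. KO MI 2 held the highest value of all 16 libraries for 19 of the 38 genes, and KO MI 7 held the lowest for 15. The median deviation of the 38 genes from their mean over all libraries was 0.27 in KO MI 2 and -0.28 in KO MI 7, on the log2(CPM + 0.5) scale. Results that rest on these libraries are given with and without them.

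**Figure D1:**
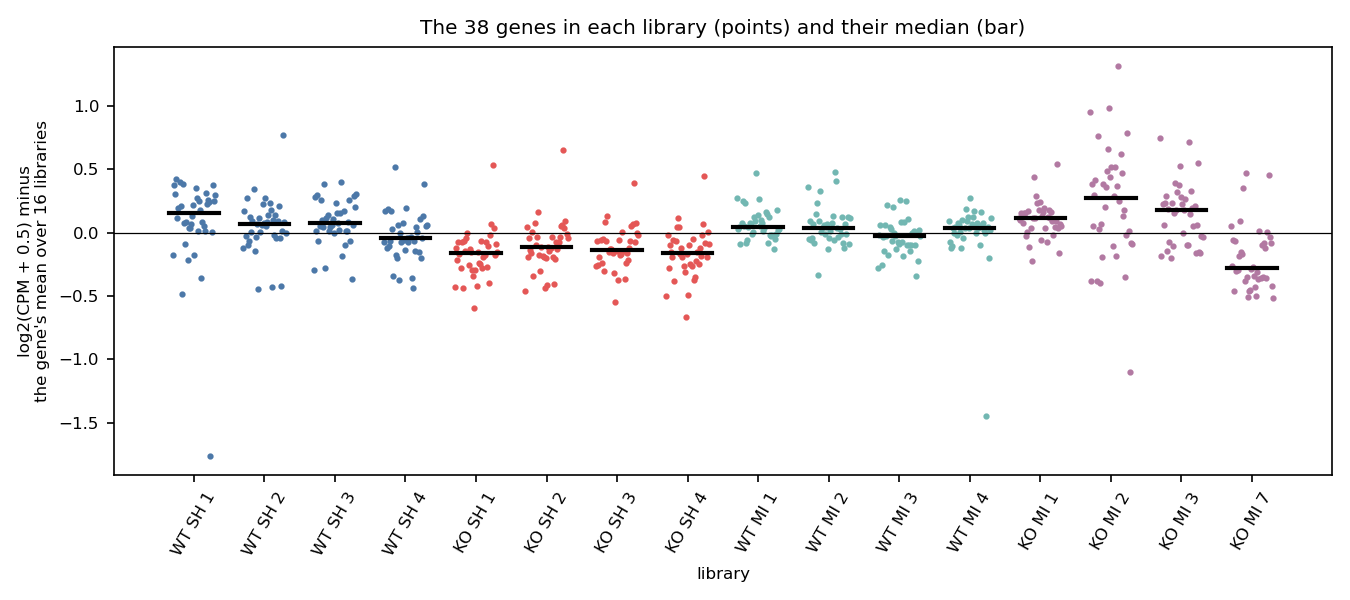
Each point is 1 of the 38 genes in 1 library, as log2(CPM + 0.5) minus the mean of that gene over the 16 libraries, and the bar is the median of the library. The 4 KO SH libraries lie below 0, from -0.16 to -0.11, and the KO MI libraries spread from -0.28 (KO MI 7) to 0.27 (KO MI 2).

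Promoters are printed for the 4 called genes that held ACGTG, a form of the core of the hypoxia element. Those of *Eno1*, *Slc16a3*, *Slc2a1*, *Aldoc* and *Pfkfb2*, which were also called, held no ACGTG and are not printed. A call was an adjusted p below 0.1 with a log2 fold change of 0.5 or more in either direction. *Pgk1*, *Pgam1* and *Pfkp* were higher in KO MI than in KO SH, and *Pygl* was higher in KO SH than in WT SH. The 250 bases before each annotated start were read from the GRCm39 genome with the GENCODE release M39 annotation, 5′ to 3′ on the strand of the gene, with ACGTG or its reverse complement CACGT in capitals.
Pgk1, chrX:105230456-105230705, plus strand: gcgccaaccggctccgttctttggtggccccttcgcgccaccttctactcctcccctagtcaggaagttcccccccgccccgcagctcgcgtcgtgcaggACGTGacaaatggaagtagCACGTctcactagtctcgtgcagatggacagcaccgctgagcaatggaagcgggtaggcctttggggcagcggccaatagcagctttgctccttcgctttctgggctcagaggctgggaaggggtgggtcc
Pgam1, chr19:41900091-41900340, plus strand: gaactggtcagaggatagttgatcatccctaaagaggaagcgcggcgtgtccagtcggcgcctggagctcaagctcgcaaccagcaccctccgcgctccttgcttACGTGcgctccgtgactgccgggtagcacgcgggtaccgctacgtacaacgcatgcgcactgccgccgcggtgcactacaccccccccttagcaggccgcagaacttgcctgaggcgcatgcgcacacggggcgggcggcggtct
Pfkp, chr13:6698971-6699220, minus strand: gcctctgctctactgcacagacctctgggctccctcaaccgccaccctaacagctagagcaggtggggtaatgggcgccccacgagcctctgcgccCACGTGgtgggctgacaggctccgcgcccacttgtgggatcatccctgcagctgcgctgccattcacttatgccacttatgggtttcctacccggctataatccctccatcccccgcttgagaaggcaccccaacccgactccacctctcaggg
Pygl, chr12:70274502-70274751, minus strand: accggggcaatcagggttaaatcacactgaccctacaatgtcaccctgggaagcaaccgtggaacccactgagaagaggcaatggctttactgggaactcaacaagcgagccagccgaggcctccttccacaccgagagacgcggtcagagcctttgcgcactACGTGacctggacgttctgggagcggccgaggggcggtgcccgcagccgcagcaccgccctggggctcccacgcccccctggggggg

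In *Pgk1* the matches began at -150 and -131 from the start, in *Pgam1* at -145 and in *Pygl* at -87. In *Pfkp* the motif formed a palindrome, so its matches on the 2 strands, at -154 and -153, overlap. Counted on either strand, ACGTG lay in 16 of the 38 promoters (42.1%), against 2941 of the 14590 promoters of tested protein-coding genes (20.2%) and 3700 of all 21770 (17%). Of the 7 genes called higher in KO MI than in KO SH, 3 held it (42.9%), and *Eno1*, *Slc16a3*, *Slc2a1* and *Aldoc* did not. The other form of the core, GCGTG, is not marked in the printed sequences. It lay in 17 of the 38 promoters (44.7%) against 39.4% of those of the tested protein-coding genes. Of the 7 called genes, 4 held GCGTG (57.1%), namely *Pgam1*, *Eno1*, *Slc16a3* and *Slc2a1*, and *Aldoc* held neither form. A match describes the letters of the window and is not evidence of binding.

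The genes covered a wide range of levels per transcript length (RPKM, reads scaled by kilobase and library size, on the canonical transcript). *Gapdh*, which oxidises glyceraldehyde 3-phosphate, was the highest, with a mean of 359 RPKM over all libraries, followed by the aldolase *Aldoa* at 289 and *Pdha1*, a catalytic subunit of pyruvate dehydrogenase, at 178. The pyruvate kinase *Pkm* (146 RPKM) and the muscle enolase *Eno3* (139 RPKM) came next. The lactate dehydrogenases *Ldhb* and *Ldha* had near-equal means of 120 and 119 RPKM. At the low end were the lactate exporter *Slc16a3* at 0.696 RPKM, the fructose 2,6-bisphosphate enzymes *Pfkfb1* at 0.486 and *Pfkfb4* at 0.431, and the brain aldolase *Aldoc* at 0.228.

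The first comparison, KO SH with WT SH, asks what the loss of *Lrrc10* does to the uninjured neonatal ventricle. Most of the 38 genes were lower in KO SH, with 31 below 0 and a median log2 fold change of -0.25, beside 0.01 over all genes tested. In the quasi-likelihood test of edgeR, adjusted by Benjamini-Hochberg, 2 genes were called lower, beside 2.53% of all genes tested, and 1 was called higher, beside 2.48%. Without the minimum fold, 10 genes passed lower, or 26.3% of the list beside a background of 7.22%, and 1 passed higher beside 5.11%. In 24 genes every KO SH library was below every WT SH library, which is 63.2% of the list beside 10.2% of all genes tested, and 1 gene had every KO SH library above, beside 8.35%. The background covers genes of all levels, including genes with few counts, whereas most of the 38 genes are well expressed.

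In glycolysis, the called genes of this comparison were 2 enzymes of its later steps, a mutase and an enolase. *Pgam1*, the phosphoglycerate mutase of most tissues, had 56.5, 60.3, 55.5 and 49.5 CPM in WT SH and 33.9, 37.9, 35.03 and 32.3 CPM in KO SH. Every KO SH library was below every WT SH library. The difference in log2 was -0.67 ± 0.20 (SE, n = 4 per group, edgeR with Benjamini-Hochberg adjusted p = 0.0459). *Eno1*, the enolase of most tissues, had 62.5, 85.5, 83.0 and 80.9 CPM in WT SH and 52.6, 53.0, 54.3 and 50.1 CPM in KO SH, again without overlap although WT SH 1 was low. Its log2 difference was -0.57 ± 0.13 (SE, n = 4 per group, edgeR with Benjamini-Hochberg adjusted p = 0.0146). These 2 genes have near-identical copies, so RSEM could have divided their reads. The annotated gene *Eno1b*, 99.5% identical over 1736 bases, and 2 further copies took 24.8% of the pooled counts of *Eno1* and its copies, and *Pgam1-ps2* took 11.9% of those of *Pgam1*. With copies summed, an alternative chosen after seeing the data, *Eno1* was -0.39 (edgeR with Benjamini-Hochberg adjusted p = 0.0376), under the minimum fold, and *Pgam1* was -0.68 (adjusted p = 0.0473). The call of *Pgam1* was lost without WT SH 1, without WT SH 2, without KO SH 1 or without KO SH 4, where its log2 difference was from -0.66 to -0.63.

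The other genes that passed lower without reaching the minimum fold were the transporter *Slc2a4* (log2 fold change -0.30), the hexokinases *Hk1* (-0.29) and *Hk2* (-0.40), the phosphofructokinase subunits *Pfkm* (-0.29) and *Pfkp* (-0.46), the heart form of the fructose 2,6-bisphosphate enzyme *Pfkfb2* (-0.48), the muscle enolase *Eno3* (-0.24) and the muscle glycogen synthase *Gys1* (-0.29). Of the 4 uptake genes 3 passed lower, as did 6 of 18 in glycolysis, 0 of 4 in lactate, 1 of 10 in glycogen and 0 of 2 in pyruvate dehydrogenase. At an unadjusted p under 0.05, 26 genes of the list reached it (68.4% beside 22.8%), among them 2 lactate genes and both pyruvate dehydrogenase genes. The number passing lower, 10 in the main fit, moved with the setting. It was 19 in DESeq2, 27 with only the groups compared and 16 with sex as a covariate. It was 4 without WT SH 1, 4 without KO SH 1, 5 without KO SH 4 and 5 in male libraries. Genes below 0 numbered 31 or 32 in each of these. These counts have no share of all genes beside them. WT SH 1 held the highest value of all libraries for 10 of the listed genes. *Pdha1* stands for pyruvate dehydrogenase, where no gene was called. It had 603, 536, 583 and 526 CPM in WT SH and 475, 502, 505 and 507 CPM in KO SH, and the groups did not overlap. Its log2 difference was -0.18 ± 0.08 (SE, n = 4 per group, edgeR with Benjamini-Hochberg adjusted p = 0.19). The remaining members had log2 fold changes from -0.62 for *Phkg1*, the catalytic subunit of muscle phosphorylase kinase, to 0.28 for *Pfkfb1*, and did not pass. *Phkg1* was called in DESeq2 (-0.63, adjusted p = 0.0649) and in edgeR with only the groups compared (-0.62, adjusted p = 0.0232).

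*Pygl*, the liver form of glycogen phosphorylase, which releases glucose from glycogen, went the other way. It had 5.08, 13.6, 14.2 and 17.8 CPM in WT SH and 26.8, 29.1, 24.3 and 25.2 CPM in KO SH. In MI it had 17.7, 19.3, 14.4 and 6.43 CPM in WT and 27.0, 32.0, 27.1 and 25.4 CPM in KO. All 8 KO libraries were therefore above all 8 WT libraries, and WT SH 1 and WT MI 4 were well below the rest of their groups. The log2 difference in SH was 1.07 ± 0.29 (SE, n = 4 per group, edgeR with Benjamini-Hochberg adjusted p = 0.0341), and in MI it was 0.95 (adjusted p = 0.12). The gene lies on chromosome 12. Of its 32 tested neighbours within 1 Mb, 1 was called between KO SH and WT SH, *Trim9* at 1.54 (edgeR, adjusted p = 0.0599). Of all genes tested 2.48% were called higher and 2.53% lower. Without the minimum fold, its neighbours *Tmx1* (0.43), *9330151L19Rik* (0.36), *Atl1* (0.25) and *Frmd6* (0.16) also passed higher, beside 5.11% of all genes. *Arf6* (-0.29) passed lower, beside 7.22%. The muscle form *Pygm* and the brain form *Pygb* differed by -0.19 and 0.07 in the same comparison. Per length, the ratio of *Pygl* to *Pygm* was 0.0208 to 0.0812 in WT SH and 0.115 to 0.138 in KO SH.

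Cell type markers differed between KO SH and WT SH as well. Of 8 cardiomyocyte markers, 4 passed lower (*Myh6* -0.35, *Tnni3* -0.34, *Actc1* -0.37 and *Myl3* -0.19) and none passed higher, with *Pln* at 0.20 and *Tnnt2* at -0.06. Their summed level ran from 30222 to 41793 CPM in WT SH and from 29490 to 30329 CPM in KO SH. The 2 tested neutrophil markers passed higher (*S100a8* 1.44 and *S100a9* 1.02). In the skeletal muscle, fibroblast, macrophage and erythroid lists 1 marker each passed lower. Of 4 smooth muscle markers 1 passed higher and 1 lower, and no endothelial marker and none of the 2 tested adipocyte markers passed. The mitochondrial rRNA *mt-Rnr2* took 35.7% to 36.3% of the counts in WT SH and 37.1% to 37.6% in KO SH. The part of these markers and of *mt-Rnr2* in the differences between KO SH and WT SH was not tested. Restricted to male libraries, which leaves KO SH 3 and 4 against the 4 WT SH libraries, the calls fell from 3 to 1, with *Eno1* kept, *Pygl* at 0.99 (edgeR, adjusted p = 0.131) and *Pgam1* at -0.71, and with sex as a covariate 4 genes were called.

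**Figure D2:**
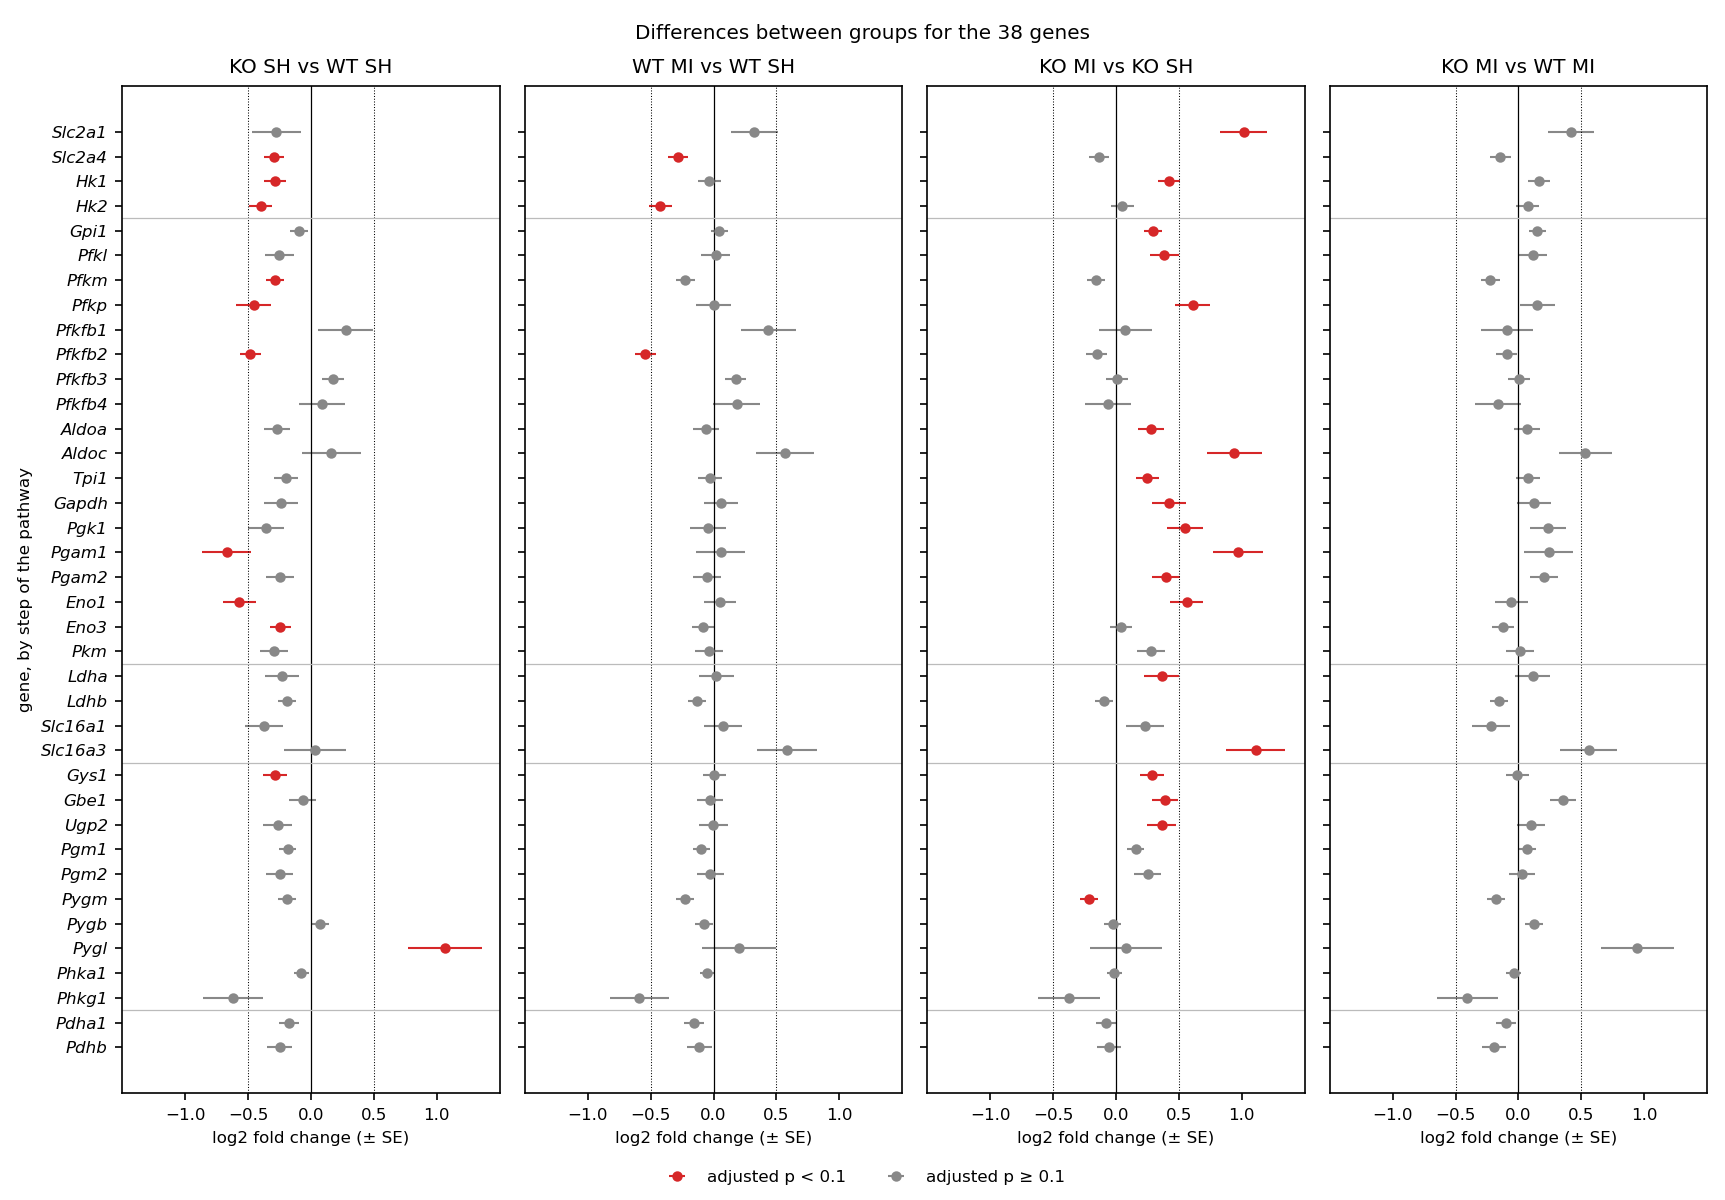
Log2 fold changes of the 38 genes, each with its SE (bars), in 4 comparisons, in the order uptake, glycolysis, lactate, glycogen and pyruvate dehydrogenase from top to bottom, with red points for an adjusted p under 0.1 and dotted lines at 0.5 either side of 0. In KO SH against WT SH 31 genes lie left of 0, and in KO MI against KO SH 27 lie right of it.

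The second comparison, WT MI with WT SH, asks what the infarct does to the ventricle in the presence of *Lrrc10*. The list as a whole stayed near 0, with a median log2 fold change of -0.03 beside 0.00 over all genes, which became 0.10 beside 0.13 with library totals as the scaling. In edgeR 0 genes were called higher, beside 2.13% of all genes, and 1 was called lower, beside 0.645%. Without the minimum fold 0 genes passed higher, beside 3.11%, and 3 passed lower, beside 2.21%. Non-overlapping lower values were found in 7 genes, 18.4% of the list beside 5.94%, and non-overlapping higher values in 1, *Slc16a3*, beside 6.16%. At an unadjusted p under 0.05, 8 genes reached it, 21.1% of the list beside 16.5%, and DESeq2 called 1. With library totals as the scaling the calls were other genes and in the other direction, 2 higher (*Aldoc* at 0.70, adjusted p = 0.0712, and *Slc16a3* at 0.72, adjusted p = 0.0894, by edgeR) and 0 lower.

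*Pfkfb2*, which makes fructose 2,6-bisphosphate, the activator of phosphofructokinase, was the gene called. It had 26.6, 25.8, 26.5 and 29.2 CPM in WT SH, and 19.4, 15.9, 17.8 and 21.1 CPM in WT MI, without overlap. The log2 difference was -0.54 ± 0.08 (SE, n = 4 per group, edgeR with Benjamini-Hochberg adjusted p = 0.00201). In KO it had 18.2, 18.9, 19.3 and 20.9 CPM in SH and 18.7, 15.3, 17.5 and 18.1 CPM in MI, so that WT SH was the only group above 25 CPM. Without WT MI 2 its log2 difference was -0.48, under the minimum fold, and no gene was called. With library totals it was -0.42, also under the minimum. The other genes that passed lower were *Hk2* at -0.42 (adjusted p = 0.0194) and *Slc2a4* at -0.28 (adjusted p = 0.0653), both by edgeR. Markers moved with this comparison too. Cardiomyocyte markers passed lower in 3 of 8 (*Myh6* -0.34, *Tnni3* -0.33 and *Ryr2* -0.34), with sums of 30222 to 41793 CPM in WT SH and 28652 to 30335 CPM in WT MI. Fibroblast markers passed higher in 3 of 6 (2124 to 2498 CPM against 2583 to 3034 CPM), the 2 tested neutrophil markers of 4 listed passed higher (0.749 to 1.42 CPM against 4.29 to 14.9 CPM), and of 6 macrophage markers *Lyz2* passed higher at 1.51. Their part in the differences of the listed genes was not tested.

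The third comparison, KO MI with KO SH, asks what the infarct does without *Lrrc10*. The list was higher after MI, with 27 of 38 genes above 0 and a median log2 fold change of 0.25 beside -0.01 over all genes. In edgeR 7 genes were called higher, 18.4% of the list beside 5.31% of all genes, and 0 were called lower, beside 2.11%. DESeq2 called 7 as well, all of them higher and the same genes. Without the minimum fold 18 genes passed higher (47.4% beside 10.2%) and 1, *Pygm* at -0.21, passed lower (beside 7.32%). Non-overlapping higher values were found in 6 genes, 15.8% of the list beside 7.68%, and non-overlapping lower values in 0, beside 7.24%. At an unadjusted p under 0.05, 23 genes reached it, 60.5% of the list beside 26.2%, and 13 of them were among the 18 genes of glycolysis.

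**Figure D3:**
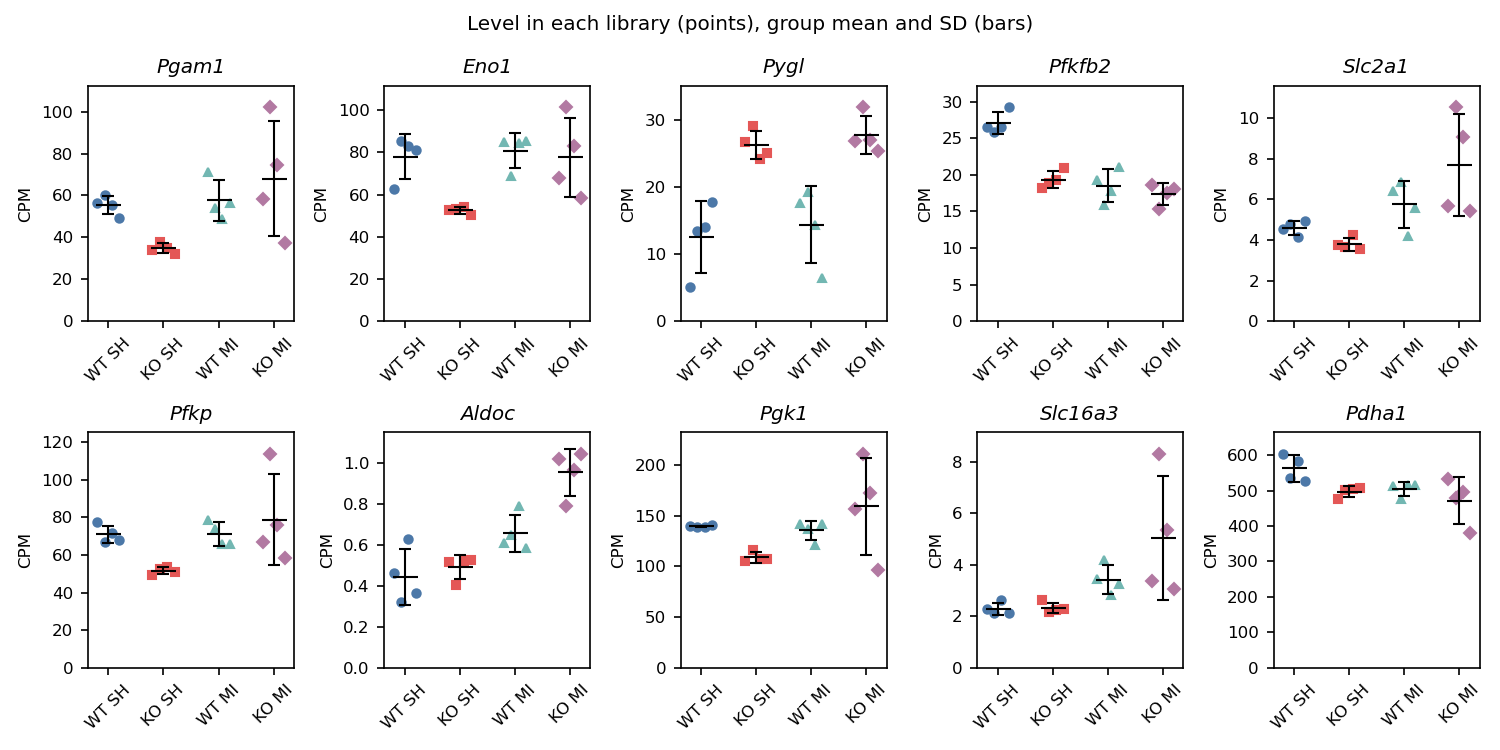
Level in CPM (y axis, from 0) of the 9 genes called in any comparison and of *Pdha1*, with a point for each library and the mean and SD of the 4 libraries of each group as black bars. The KO SH points of *Pgam1* and *Eno1* lie below all WT SH points, and the KO MI points spread most, with KO MI 2 at 102 CPM and KO MI 7 at 37.5 CPM for *Pgam1*.

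Uptake and phosphorylation contributed *Slc2a1*. It had 3.74, 3.65, 4.26 and 3.54 CPM in KO SH, and 5.67, 10.5, 9.08 and 5.43 CPM in KO MI 1, 2, 3 and 7. No KO MI library overlapped KO SH, and KO MI 2 and KO MI 3 were high. The log2 difference was 1.02 ± 0.19 (SE, n = 4 per group, edgeR with Benjamini-Hochberg adjusted p = 0.00291). *Hk1* passed at 0.42, whereas *Slc2a4* (-0.13) and *Hk2* (0.05) did not pass. In WT the levels of *Slc2a1* were 4.56, 4.76, 4.15 and 4.93 CPM in SH, and 6.39, 6.84, 4.21 and 5.58 CPM in MI, where the ranges overlapped.

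In glycolysis 5 genes were called. *Pfkp*, the platelet form of phosphofructokinase, had 49.1, 52.6, 53.8 and 51.0 CPM in KO SH and 67.0, 114, 75.8 and 58.5 CPM in KO MI, without overlap and with KO MI 2 far above the others. Its log2 difference was 0.61 ± 0.14 (SE, n = 4 per group, edgeR with Benjamini-Hochberg adjusted p = 0.0101). In WT *Pfkp* ran from 66.8 to 77.2 CPM in SH and from 65.6 to 78.5 CPM in MI. *Aldoc* had 0.518, 0.405, 0.522 and 0.525 CPM in KO SH and 1.02, 0.787, 0.964 and 1.04 CPM in KO MI, the only called gene of glycolysis in which KO MI 7 was the highest of its group. The log2 difference of *Aldoc* was 0.94 ± 0.22 (SE, n = 4 per group, edgeR with Benjamini-Hochberg adjusted p = 0.0111). In WT SH *Aldoc* ran from 0.321 to 0.629 CPM.

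*Pgk1*, a kinase that makes ATP in glycolysis, had 105, 117, 107 and 107 CPM in KO SH and 157, 211, 173 and 96.5 CPM in KO MI. KO MI 7 lay below all KO SH libraries. The log2 difference was 0.55 ± 0.14 (SE, n = 4 per group, edgeR with Benjamini-Hochberg adjusted p = 0.0209). In WT *Pgk1* ran from 139 to 141 CPM in SH and from 122 to 142 CPM in MI. *Pgam1* had 58.3, 102, 74.5 and 37.5 CPM in KO MI, where KO MI 7 fell within the KO SH range, and a log2 difference of 0.97 ± 0.20 (SE, n = 4 per group, edgeR with Benjamini-Hochberg adjusted p = 0.00549). *Eno1* had 68.0, 101, 82.8 and 58.3 CPM in KO MI, all above KO SH, and a log2 difference of 0.56 ± 0.13 (SE, n = 4 per group, edgeR with Benjamini-Hochberg adjusted p = 0.0112). In WT MI *Pgam1* ran from 48.9 to 71.4 CPM and *Eno1* from 68.5 to 85.3 CPM. The other genes of glycolysis that passed were *Gpi1* (0.29), *Pfkl* (0.38), *Aldoa* (0.28), *Tpi1* (0.25), *Gapdh* (0.42) and *Pgam2* (0.40), the muscle mutase.

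Among the lactate genes *Slc16a3*, the transporter MCT4 that exports lactate from glycolytic cells, was called. It had 2.61, 2.19, 2.25 and 2.28 CPM in KO SH and 3.37, 8.31, 5.34 and 3.08 CPM in KO MI, without overlap. The log2 difference was 1.11 ± 0.24 (SE, n = 4 per group, edgeR with Benjamini-Hochberg adjusted p = 0.00704). In WT it had 2.27, 2.14, 2.63 and 2.13 CPM in SH and 3.47, 4.20, 2.81 and 3.24 CPM in MI, also without overlap, at a log2 difference of 0.58 (edgeR with Benjamini-Hochberg adjusted p = 0.222). That WT difference was called in edgeR with only the groups compared (0.59, adjusted p = 0.044) and with library totals, and whether it differed from that in KO was not shown, with an interaction of 0.53 (edgeR, adjusted p = 0.51). *Ldha*, the subunit of lactate dehydrogenase that favours lactate, passed at 0.36, and *Ldhb* (-0.10) did not.

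In glycogen metabolism *Gys1* (0.29), the branching enzyme *Gbe1* (0.39) and *Ugp2* (0.36), which makes UDP-glucose, passed higher, and *Pygm* passed lower at -0.21. No glycogen gene reached the minimum fold. *Pygl* differed by 0.08, and the pyruvate dehydrogenase genes *Pdha1* (-0.08) and *Pdhb* (-0.05) did not pass. *Pdha1* had 531, 479, 497 and 379 CPM in KO MI, where KO MI 7 was the lowest, and 513, 475, 515 and 515 CPM in WT MI. Summed over each step, glycolysis genes reached 2813, 3204, 2894 and 1967 CPM in the KO MI libraries, against 2123 to 2265 CPM in KO SH. In WT these sums were 2504 to 2819 CPM in SH and 2477 to 2712 CPM in MI, so KO SH lay below both WT groups.

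Of these calls 3 rested on KO MI 2 and none on KO MI 7. Without KO MI 2, 4 genes were called (*Slc2a1*, *Aldoc*, *Pgam1* and *Slc16a3*), and *Pfkp*, *Pgk1* and *Eno1* had log2 differences of 0.38, 0.38 and 0.41. Without KO MI 7, 11 genes were called, with *Pfkl*, *Gapdh*, *Pgam2* and *Ldha* added. Without both, 7 were called, of which 6 were among the 7 of all libraries. In male libraries alone, KO MI 3 and 7 against KO SH 3 and 4, only *Slc2a1* and *Slc16a3* were called. The number passing higher without the minimum fold, 18 in all libraries, moved as well. It was 10 with only the groups compared, 10 without KO MI 2, 11 without KO MI 3 and 2 in male libraries. It was 22 without KO MI 7 and 23 with library totals. The counts of this paragraph under other settings have no share of all genes beside them, so whether their changes are particular to the list was not shown.

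Cell type markers moved with this comparison too. Of 8 cardiomyocyte markers, 2 passed higher (*Actc1* 0.37 and *Myl2* 0.24) and 2 passed lower (*Pln* -0.54 and *Ryr2* -0.25). The 2 tested neutrophil markers passed higher, and 1 endothelial marker and 1 of the 2 tested adipocyte markers passed lower. Skeletal muscle markers passed higher in 8 of the 10 tested (of 16 listed, which include *Acta1* and *Ckm*, also expressed in heart), with sums of 307 to 350 CPM in KO SH and 427 to 753 CPM in KO MI. The neonatal myosin *Myh8* was 42.3 CPM in KO MI 2 and 58.5 CPM in KO MI 7, which lay at opposite ends for the genes of glucose metabolism, and at most 3.37 CPM in KO MI 1 and 3. Erythroid markers passed higher in 6 of 6, with sums of 416 to 497 CPM in KO SH and 354 to 1144 CPM in KO MI, where KO MI 7 was the lowest. Macrophage markers passed higher in 5 of 6 (46.9 to 54.9 CPM against 59.0 to 123.1 CPM), fibroblast markers in 4 of 6 (1989 to 2184 CPM against 2733 to 3080 CPM) and smooth muscle markers in 3 of 4 (168 to 217 CPM against 273 to 331 CPM). The share of *mt-Rnr2* was 37.1% to 37.6% in KO SH and 29.8% to 35.04% in KO MI, lowest in KO MI 2, and 34.05% to 34.8% in WT MI. The part of these markers and of *mt-Rnr2* in the differences of the listed genes was not tested.

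The fourth comparison, KO MI with WT MI, asks whether the genotypes differ after the infarct. The median log2 fold change of the list was 0.07, beside 0.01 over all genes. In edgeR 0 of the 38 genes were called, beside 1.73% of all genes, and 0 passed without the minimum fold, beside 3.07%. At an unadjusted p under 0.05, 9 genes reached it, 23.7% of the list beside 12.4%, and DESeq2 called 0 with 2 passing. *Aldoc* and *Pygl* had all KO MI libraries above all WT MI libraries, 5.26% of the list beside 2.74%, and 0 genes had all of them below, beside 3.73%. *Aldoc* had 0.61, 0.646, 0.787 and 0.586 CPM in WT MI, next to the KO MI values given above, for a log2 difference of 0.53. Its highest WT MI and lowest KO MI values were both 0.787 CPM, a gap smaller than 1 count. The highest differences that did not pass were those of *Pygl* (0.95), *Slc16a3* (0.56), *Aldoc* (0.53) and *Slc2a1* (0.42). Without KO MI 7, 3 genes were called, *Pygl*, *Slc16a3* and *Slc2a1*, and without WT MI 2 *Pygl* alone was called. Counts with a library left out have no share of all genes beside them. Among cell type markers, 5 of the 10 tested for skeletal muscle and 2 of 6 erythroid markers passed higher in KO MI. Of the 2 tested adipocyte markers *Fabp4* passed lower (-0.28) and *Cidea* (0.16) did not pass, and no marker of the other lists passed. The adipocyte markers *Ucp1*, *Plin1* and *Adipoq* had too few counts to be tested. They were highest in KO MI 7, at 3.05, 0.669 and 0.375 CPM, against at most 0.172, 0.09 and 0.0215 CPM in any other library. The part of these markers in the differences of the listed genes was not tested.

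The last comparison, the interaction, asks whether the KO effect after MI differs from that after SH, which the separate comparisons do not test. In edgeR 0 of the 38 genes were called, beside 0.0248% of all genes, although 15 reached an unadjusted p under 0.05, 39.5% of the list beside 13.6%. The median difference of effects was 0.28 beside 0.00 over all genes, and 34 of 38 were above 0. The largest was that of *Pgam1* at 0.91 ± 0.28 (SE, n = 4 per group, edgeR with Benjamini-Hochberg adjusted p = 0.201), and *Hk1* (0.45) and *Hk2* (0.47) had adjusted p-values of 0.188 and 0.186. DESeq2 called 2 genes, *Pfkp* and *Pgk1*, with 5 passing. Leaving out KO MI 7 gave 12 called genes (*Slc2a1*, *Hk1*, *Hk2*, *Pfkp*, *Gapdh*, *Pgk1*, *Pgam1*, *Pgam2*, *Eno1*, *Ldha*, *Gbe1* and *Ugp2*). Leaving out KO MI 2 and 7 gave *Hk2*, *Pgam1* and *Pgk1*, and leaving out WT SH 4 gave *Hk1*. The counts under these other settings have no share of all genes beside them. Whether they are particular to the list was therefore not shown.

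**Figure D4:**
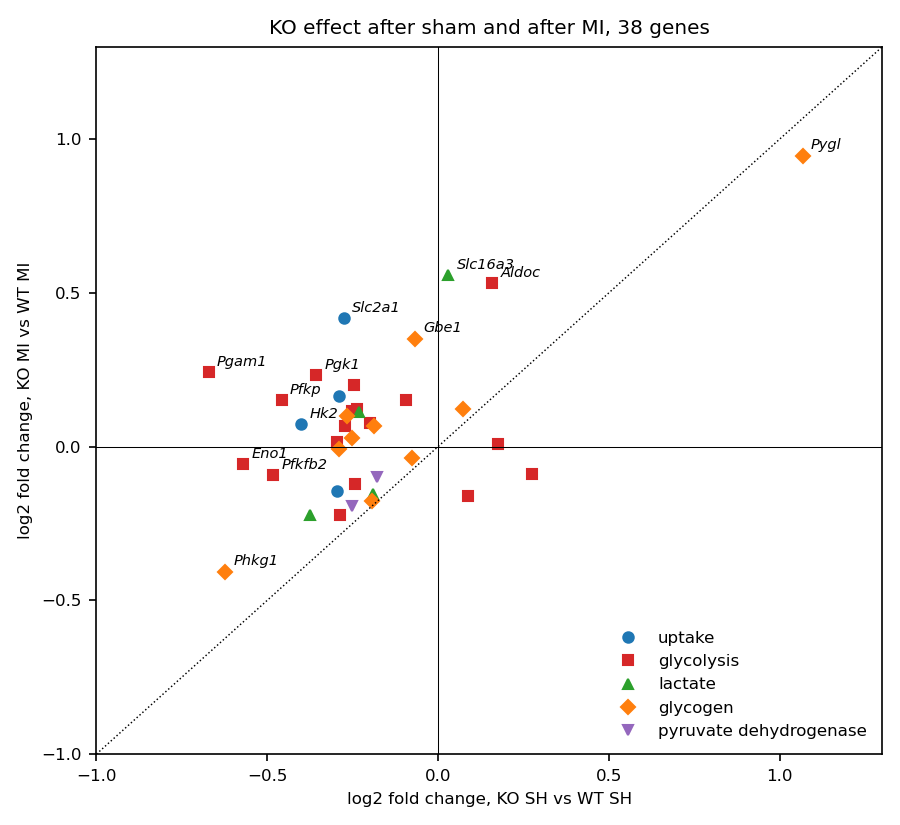
Each point is 1 of the 38 genes, with its log2 fold change in KO SH against WT SH on the x axis and in KO MI against WT MI on the y axis, shaped and coloured by step, and the dotted line marks equal effects. Most points lie above the line, *Pgam1* at -0.67 and 0.24 and *Slc2a1* at -0.28 and 0.42, while *Pygl* lies close to it at 1.07 and 0.95.

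Pairs of isozymes that do the same step in different tissues differ in which form dominates, and are given as ratios per length, as a description with no test. The ratio of *Slc2a1* to *Slc2a4* was 0.0460 to 0.0589 in WT SH, 0.0476 to 0.0602 in KO SH, 0.0576 to 0.0959 in WT MI and 0.0715 to 0.186 in KO MI. *Slc2a4* was therefore the more abundant transcript of the pair in every library. The ratio of *Hk1* to *Hk2* was 1.65 to 1.89 in WT SH and 1.81 to 1.96 in KO SH, and 2.03 to 2.54 in WT MI and 2.166 to 2.71 in KO MI, with both MI groups above both SH groups. The ratio of *Pfkp* to *Pfkm*, the muscle form, was lowest in KO SH (0.281 to 0.304), then WT SH (0.318 to 0.333). WT MI (0.342 to 0.426) and KO MI (0.370 to 0.808, with KO MI 2 at the top) overlapped each other and lay above both SH groups.

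The ratio of *Pgam1* to *Pgam2* was 0.268 to 0.316 in WT SH and 0.200 to 0.241 in KO SH, without overlap, and 0.288 to 0.358 in WT MI and 0.252 to 0.414 in KO MI, which overlapped. For *Ldha* to *Ldhb* the ranges of all groups overlapped, from 0.812 in WT MI to 1.59 in KO MI. The ratio of *Pygb* to *Pygm* was 0.559 to 0.693 in WT SH and 0.703 to 0.744 in KO SH, and 0.650 to 0.691 in WT MI and 0.724 to 0.903 in KO MI, so that the KO libraries lay above the WT libraries in both treatments.

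**Figure D5:**
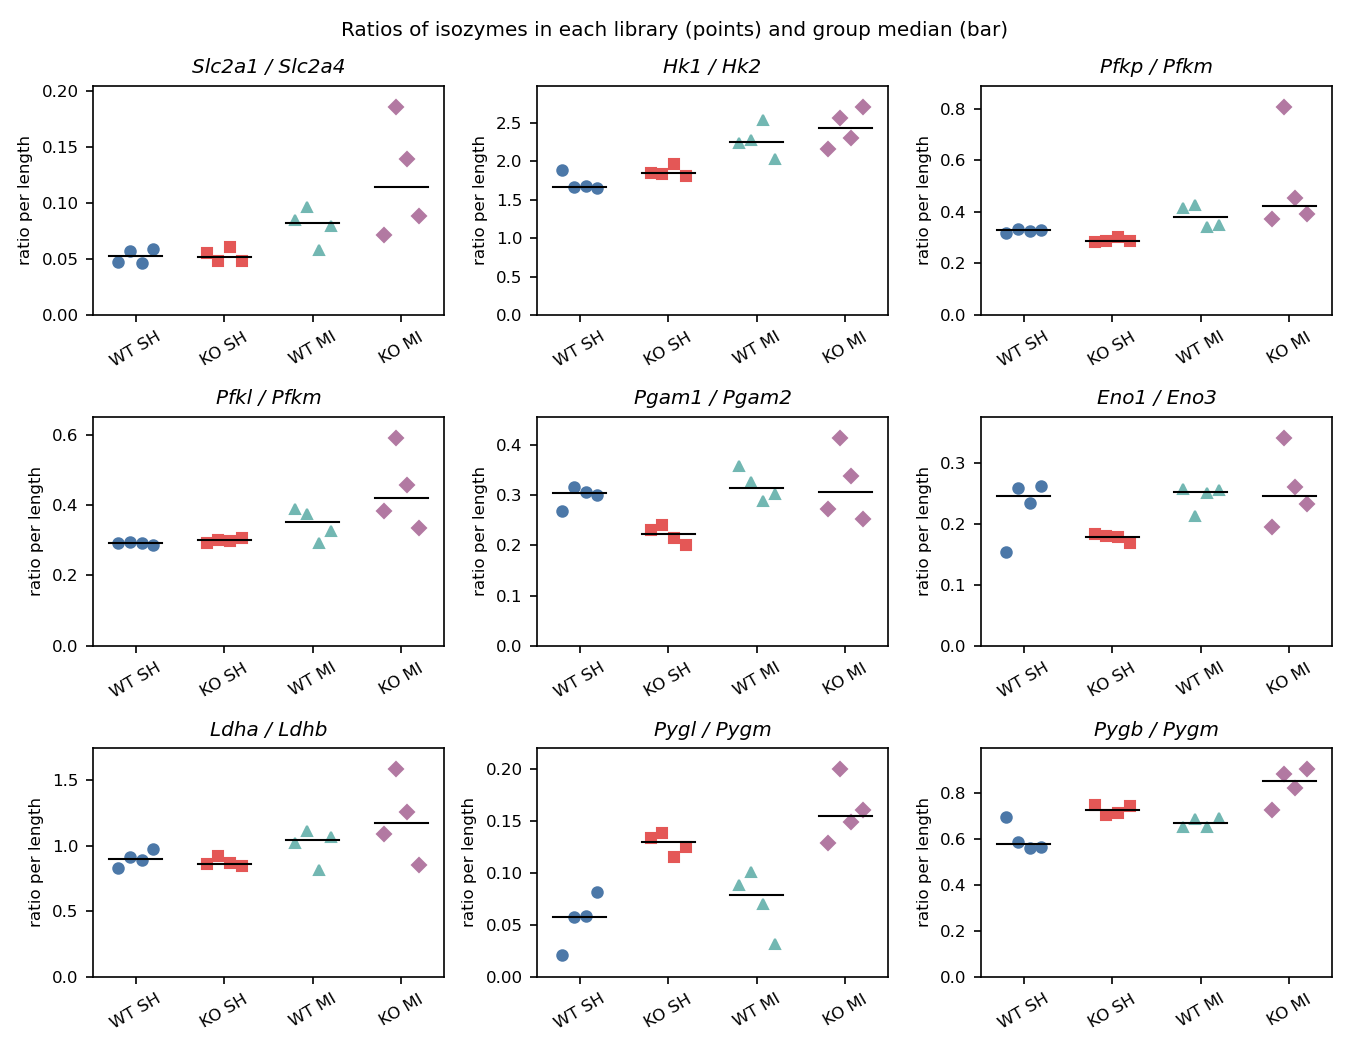
Ratio of 2 isozymes per transcript length (y axis, from 0) in each library (points), by group, with the group median as a bar, for 9 pairs. The *Hk1* to *Hk2* ratios of the MI groups lie from 2.03 to 2.71 and those of the SH groups from 1.65 to 1.96.

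Of 69 other genes of glucose metabolism and its regulation, listed by function, 63 were tested. Between KO SH and WT SH, 2 passed higher in KO SH (3.17% beside 5.11% of all genes) and 11 lower (17.5% beside 7.22%). In KO MI against KO SH, 9 passed higher (14.3% beside 10.2%) and 4 lower (6.35% beside 7.32%). In WT MI against WT SH, 1 passed higher (1.59% beside 3.11%) and 4 lower (6.35% beside 2.21%), and in KO MI against WT MI 5 passed in either direction (7.94% beside 3.07%). Some of the called genes are given with their libraries.

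*Txnip*, which restrains glucose uptake, had 218, 200.2, 166 and 186 CPM in WT SH and 322, 282, 362 and 326 CPM in KO SH, without overlap (log2 fold change 0.75, edgeR with Benjamini-Hochberg adjusted p = 0.0621). In KO MI it had 161, 112, 132 and 348 CPM, with KO MI 7 in the KO SH range and the others below it, and the log2 fold change against KO SH was -0.78 (edgeR with Benjamini-Hochberg adjusted p = 0.0411). Of 8 listed hypoxia-responsive genes outside glucose metabolism, 2 passed lower (25% beside 7.22% of all genes) and 0 higher (beside 5.11%) in KO SH against WT SH. In KO MI against KO SH, 3 passed higher (37.5% beside 10.2%) and 0 lower (beside 7.32%). The median log2 fold changes of the 8 genes in these comparisons were -0.07 and 0.24. *Ankrd37*, the called gene among them, had log2 fold changes of -0.73 and 0.71, whereas *Vegfa* had -0.42, which passed, and 0.05, which did not. *Bpgm*, which makes 2,3-bisphosphoglycerate mainly in red cells, rose by 0.66 in KO MI against KO SH, with 20.3, 23.1 and 17.3 CPM in KO MI 1, 2 and 3 and 9.44 CPM in KO MI 7. *Fbp2*, a muscle enzyme that opposes phosphofructokinase, was called lower in KO MI than in KO SH at -0.63.

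*Mpc2*, a subunit of the mitochondrial pyruvate carrier, had 48.3, 38.98, 41.8 and 36.9 CPM in WT SH and 29.6, 26.2, 32.2 and 27.9 CPM in KO SH, without overlap, for a log2 fold change of -0.52 (edgeR with Benjamini-Hochberg adjusted p = 0.00737). *Stbd1*, which binds glycogen, had 6.65, 0.615, 6.89 and 6.29 CPM in WT SH and 0.699, 1.65, 1.02 and 0.918 CPM in KO SH (log2 fold change -2.27, edgeR with Benjamini-Hochberg adjusted p = 0.0227). WT SH 2 alone of the WT SH libraries was as low as KO. In MI *Stbd1* had 6.37, 1.44, 6.79 and 10.6 CPM in WT and 1.14, 1.87, 1.43 and 1.74 CPM in KO (log2 fold change -2.03, edgeR with Benjamini-Hochberg adjusted p = 0.0659).

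*Slc16a7*, a monocarboxylate transporter, differed between the genotypes after MI. It had 5.40, 6.07, 5.65 and 6.34 CPM in WT MI and 16.1, 15.0, 14.3 and 17.2 CPM in KO MI, a log2 fold change of 1.42 (edgeR with Benjamini-Hochberg adjusted p = 0.00125). In SH it had 22.1, 14.8, 13.8 and 7.09 CPM in WT and 15.2, 16.96, 16.5 and 15.5 CPM in KO, so WT SH spread on both sides of the KO libraries. The gene lies 8.17 Mb from *Lrrc10* on chromosome 10. *Ppargc1a*, a co-activator of mitochondrial genes, was called lower in KO MI, relative to WT MI, at -0.63 (edgeR, adjusted p = 0.0613), and *Pgm3*, a hexosamine enzyme, was called higher in WT MI than in WT SH at 0.51.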

How the data were processed

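Total RNA sequencing of neonatal mouse ventricles gave 16 libraries, grouped by genotype and surgery as labelled. The table deposited by the authors holds RSEM expected counts per gene, stored as whole numbers and not normalised. For the steps before it, the methods of the study name Skewer (0.1.123), STAR (2.5.3a) and RSEM (1.3.0) on GRCm39, whereas the submitters' processing notes name cutadapt (3.4), HISAT2 (2.2.1) and RSEM (1.1.17), and the annotation release is not given in the sources used here. RSEM shares reads that fit several genes between them, which matters for genes with copies. GENCODE release M39 named 47772 of the 51912 identifiers and gave positions, canonical transcript lengths and promoters.

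Genes reaching 10 counts, summed over the libraries, in every group were fitted over all 16 libraries with edgeR (4.0.16) in R (4.3.3), with TMM scaling and the two-sided quasi-likelihood F-test, and p-values were Benjamini-Hochberg adjusted over all 20159 genes. A call needed an adjusted p below 0.1 with a log2 fold change of 0.5 or more in either direction, the thresholds of the study, and passing needed the adjusted p alone. CPM used the TMM-scaled library size. The SE of a log2 fold change came from the same test, in which all 4 groups share the estimate of the spread. A group whose libraries spread widely, such as KO MI, therefore has no estimate of its own. The fitting step was tested on simulated data. Near-identical copies were found with blastn (2.17.0), at 95% identity or more over at least 500 bases. Sex was read from *Xist* and Y-linked genes.

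Values in every library of the groups compared are given for genes called in any contrast and, for a step with no call, for its member with the highest level per length. For some of these genes the groups outside the contrast are given as ranges. Members that passed with a smaller fold are named, the others are given by range and count, and other pathway genes are named where called, except for a gene that is not reported here. *Phkg1*, *Pygb*, the unpassed members and ratios were named after their values were seen. The members, lists, tests and alternatives were chosen with earlier results of these data known. The alternatives were DESeq2 (1.42.0), its size factors, library totals, no filter, filterByExpr, a robust fit, only the groups compared, a replicate block, sex as a covariate, other thresholds and leaving out libraries. Summed copies and male libraries were added after seeing the data. Nothing in the sources used here says that replicates came from separate litters, and intervals cover the spread between these libraries.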

Additional observations from a re-analysis of the deposited data

Results flagged for a closer look

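Some single libraries stood far from the other 3 of their group by Dixon's test of the gap to the nearest value. In 40 groups of 4 libraries, over the 10 genes given in full, 4 were marked in this way, and chance marks about 1 in 20, or 2 groups. *Eno1* in WT MI 2 had 68.5 CPM where the other WT MI libraries had 84.5 to 85.3 CPM. *Aldoc* in KO SH 2 had 0.405 CPM where the others had 0.518 to 0.525 CPM. *Pdha1* in KO SH 1 had 475 CPM against 502 to 507 CPM, and *Pdha1* in WT MI 2 had 475 CPM against 513 to 515 CPM.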

How the results depend on the processing

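No called gene changed direction under the alternatives run. Under the alternatives, 95 counts of called genes stayed within 1.5 times and 20 moved, 102 medians moved by less than the replicate SD and 3 by more, and 218 values of named genes kept their call and 20 lost it. Counts of calls under the alternatives are given without the share of all genes. The calls of KO MI against KO SH numbered 7, and 14 with library totals, 19 with no minimum fold, 11 with the replicate block, 2 in male libraries, and 4 to 11 with 1 library left out. Those of KO SH against WT SH numbered 3, and 11 with no minimum fold and 1 in male libraries. Those of WT MI against WT SH numbered 1 (lower), and 2 with library totals (*Aldoc* and *Slc16a3*, both higher), 3 with no minimum fold, 3 with only the groups compared, and 0 to 1 with 1 library left out. Those of KO MI against WT MI numbered 0, and 1 with no filter, and 0 to 3 with 1 library left out. The interaction had 0 calls, and 2 in DESeq2, 10 with the replicate block, 3 without KO MI 2 and 7, and 0 to 12 with 1 library left out. Library totals moved the median of the list to 0.40 (KO MI against KO SH) and 0.10 (WT MI against WT SH), where the median of all genes moved to 0.14 and 0.13, so relative to it the list stayed at 0.26 and -0.02, and in male libraries the median was 0.11 in KO MI against KO SH. *Pgam1* in KO SH also lost its call in a robust fit, and *Pgk1* in KO MI with only the groups compared. The replicate numbers did not pair the libraries: correlations of same-numbered libraries ran from -0.06 to 0.11, and 4 of 16 correlated best with their own number. Number 7 occurs in KO MI alone, so the replicate block takes KO MI 7 out of the contrasts, and its 10 interaction calls were all among the 12 without KO MI 7. The cause of the other changes was not tested. Genes near the floor of 3 counts, such as *Aldoc*, are limited by depth.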
